A study of Mus musculus with 168 samples.

Results

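Ocular motor neurons of mice with spinal muscular atrophy (SMA) were compared with those of control mice at postnatal day 5, the early symptomatic stage of this model. The comparison took every library that the labels place in the SMA or the control group of oculomotor and trochlear neurons at that age. These are 12 libraries of 9 mice, 4 controls and 5 with SMA, of 168 libraries in the whole series. Libraries of the same mouse were averaged, so the mouse was the replicate. The SMA mice were delta7 mice with the genotype Smn-/-/SMN2+/+/SMN∆7+/+, and the controls were littermates with Smn+/+/SMN2+/+/SMN∆7+/+. Both groups therefore carried the human SMN2 gene and the SMN∆7 transgene in addition to the difference in mouse Smn1. Small pools of neurons were cut by laser from stained frozen sections, and polyA RNA was sequenced with Smart-seq2 and Tn5 tagmentation. Values are RPKM, reads per kilobase of transcript scaled to the mapped reads of the library.

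SMN, the survival motor neuron protein, works in a complex with the Gemin proteins that loads Sm proteins onto small nuclear RNAs, the RNA cores of the splicing machinery. SMA follows from too little SMN and kills spinal and lower brainstem motor neurons, while the motor neurons that move the eyes are known to be largely spared. The transcription factor p53, which is activated by DNA damage and other stress, switches on genes of growth arrest, cell death and repair and is known to be active in vulnerable motor neurons of SMA mice.

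The libraries held 5.47 to 13.6 M reads, as recovered from the steps of low RPKM values. They showed the identity given by their labels. Chat, the acetylcholine-making enzyme, had 23.2 to 65.0 RPKM over the 9 mice, and the motor neuron transcription factor Isl1 had 71.1 to 141. The 9 spinal and Hox genes of the list summed to 0.181 to 1.07 RPKM in controls and 0.0969 to 0.522 in SMA, and Hoxb8 was at 0 in every mouse. Nuclei were not sampled alike. Control mouse 29 had an oculomotor library only, control mice 30 and 75 had a library of each nucleus, and control mouse 71 and all 5 SMA mice had libraries of both nuclei together, so nucleus and genotype can be told apart only in part. Control mouse 29 stood apart on the first principal component of the 9 mice, which held 25.5% of the variance. It had the fewest genes above 0, 14436 against 15731 to 18689 in the other mice. Of these, mice 30, 75 and 31 were averages of 2 libraries, which raises this number. By library mouse 29 was not the lowest, since the oculomotor library of control mouse 30 had 14235. SMA mouse 76 stood apart on the second component (15.8%). The male gene Ddx3y had 20.2 RPKM in control mouse 75, 19.1 in SMA mouse 46 and at most 0.0292 in the other 7, which puts 1 such mouse in each genotype. Many counts that mouse 29 moved are given with and without it, but those of genes without overlap are given with it only.

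At day 5, 4 of 15890 genes tested passed the threshold of an adjusted p under 0.05 (0.0252%). Smn1 was lower in SMA mice and Snrpa1, Chrac1 and Cdkn1a were higher. The test was limma on log2(RPKM + 1), 2-sided, with Benjamini-Hochberg adjustment, and all fold changes are differences on that scale. The median difference of all genes was 0.06. At an unadjusted p under 0.05 there were 672 genes with higher values in SMA (4.23%) and 446 with lower values (2.81%). Control mouse 29 was the lowest control in 499 of the 672 and the highest control in 254 of the 446. Without it there were 328 genes with higher values (2.06%) and 333 with lower values (2.1%), and the median difference of all genes was 0.02. In 221 genes (1.39%) every SMA mouse lay above every control mouse, and in 141 (0.887%) every SMA mouse lay below.

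**Figure D1:**
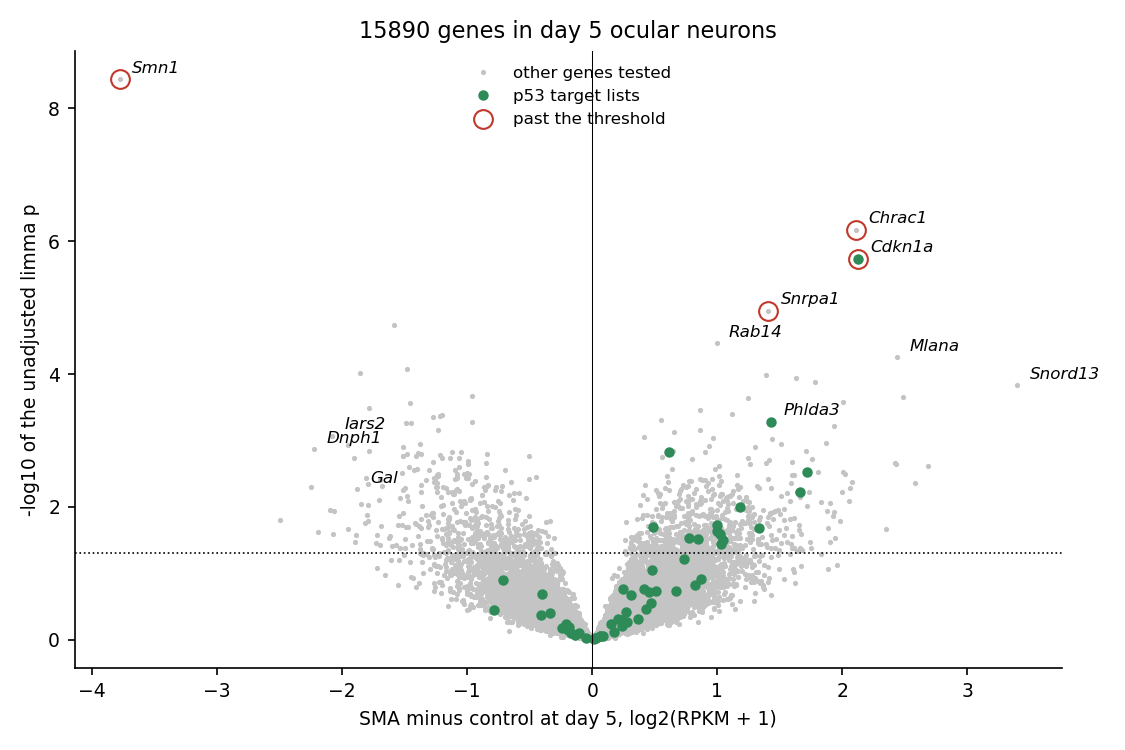
Difference between SMA and control mice at day 5 for each gene tested, on the log2(RPKM + 1) scale, against the negative log10 of the unadjusted limma p. Red circles are the 4 genes past the threshold, green points are members of the p53 target lists, and the dotted line is an unadjusted p of 0.05; no p53 list member lies above that line on the side of lower values.

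The labels were checked on Smn1, the protein-coding gene that SMA mice lack (GRCm38 chromosome 13, 100124852 to 100137690, on the plus strand). Controls 29, 30, 71 and 75 had 9.26, 17.9, 16.9 and 20.2 RPKM of Smn1. SMA mouse 31 had 1.46, and mice 46, 61, 76 and 77 were at 0. The groups did not overlap, and the 1.46 came from the shallower library of mouse 31, which had 2.93 while its deeper library was at 0. A library at 0 allowed up to 0.0851 to 0.157 RPKM at a floor of 3 reads over the annotated exons, which covers counting error only. The difference was −3.78 (SE 0.45, limma adjusted p 5.73e-05). The row of the human SMN2 gene had 151 ± 38.0 RPKM in controls (SD, n = 4) and 169 ± 39.3 in SMA (n = 5), which overlapped (difference 0.17, SE 0.23, limma adjusted p 0.935). How reads were divided between mouse Smn1 and the human copies is not given in the sources used here.

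Snrpa1 (chromosome 7, 66059003 to 66074587, plus strand, GRCm38, protein coding) encodes a protein of the U2 small nuclear ribonucleoprotein. Controls 29, 30, 71 and 75 had 33.8, 33.7, 44.2 and 38.8 RPKM of Snrpa1. SMA mice 31, 46, 61, 76 and 77 had 109, 119, 96.8, 72.2 and 116. Every SMA mouse was above every control, and the SMA mean was 2.73 times the control mean. Snrpa1 rose by 1.41 (SE 0.26, limma adjusted p 0.0441). In the 9 fits that left out 1 mouse, this call was the least secure of the 4. It was lost in 7 of them, with limma adjusted p from 0.0254 to 0.240, although the difference stayed between 1.35 and 1.53.

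Chrac1 (chromosome 15, 73090392 to 73097554, plus strand, GRCm38, protein coding) encodes a histone-fold subunit of the CHRAC chromatin remodelling complex. Controls 29, 30, 71 and 75 had 7.28, 14.0, 12.7 and 12.3 RPKM of Chrac1. SMA mice 31, 46, 61, 76 and 77 had 88.3, 37.9, 62.2, 81.0 and 22.2. The groups did not overlap, the SMA values spread over a wider range than the control values, and the SMA mean was 5.03 times the control mean. Chrac1 rose by 2.11 (SE 0.33, limma adjusted p 0.00532). By library the 6 control values ran from 7.28 to 16.7 and the 6 SMA values from 22.2 to 110, and the 2 libraries of mouse 31 had 66.8 and 110. The 3′ end of Chrac1 overlaps Ago2, a gene on the minus strand that encodes an Argonaute protein, and the library method does not mark strand. Ago2 had 8.11 ± 1.52 RPKM in controls (SD, n = 4) and 8.87 ± 1.10 in SMA (n = 5), a difference of 0.13 (SE 0.24, unadjusted limma p 0.600).

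Cdkn1a (chromosome 17, 29090976 to 29100727, plus strand, GRCm38, protein coding) encodes p21, the inhibitor of cyclin-dependent kinases through which p53 stops the cell cycle. Controls 29, 30, 71 and 75 had 11.2, 28.0, 34.4 and 27.8 RPKM of Cdkn1a. SMA mice 31, 46, 61, 76 and 77 had 273, 81.2, 57.7, 118 and 89.2. All SMA mice were above all controls, and mouse 31 was far above the other SMA mice. Cdkn1a rose by 2.13 (SE 0.35, limma adjusted p 0.00973), and by 1.79 without mouse 31 (SE 0.32, adjusted p 0.0324). By library the control values ran from 11.2 to 37.8 and the SMA values from 57.7 to 340.

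**Figure D2:**
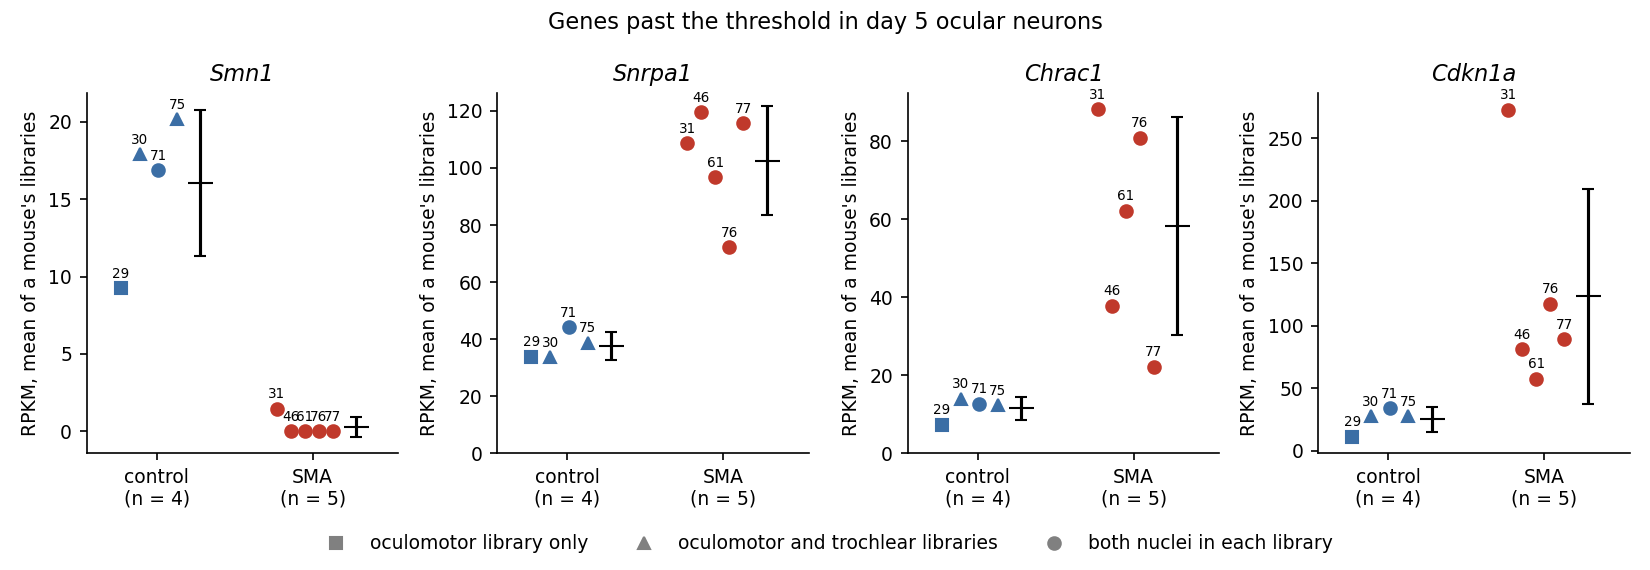
RPKM of the 4 genes past the threshold in each mouse, with mouse numbers above the points and marker shapes for the nuclei in the libraries; the black bar is the mean with its SD. SMA mice lie below all controls for Smn1 and above all controls for Snrpa1, Chrac1 and Cdkn1a.

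The calls of Chrac1, Cdkn1a and Snrpa1 were lost without control mouse 29 and with only the day 5 groups in the fit. Without mouse 29 Smn1 alone passed the threshold, and limma gave differences of 1.92 for Chrac1 (adjusted p 0.0739), 1.79 for Cdkn1a (0.104) and 1.36 for Snrpa1 (0.189). Mouse 29 was the lowest control for Chrac1 and Cdkn1a. With only the day 5 groups in the fit, 2 genes passed, Smn1 (adjusted p 0.0216) and the neuropeptide gene Gal, and the differences were the same as with all ages, at 2.11 for Chrac1 (SE 0.39, adjusted p 0.377), 2.13 for Cdkn1a (SE 0.44, 0.529) and 1.41 for Snrpa1 (SE 0.18, 0.0504). Left out in place of mouse 29, control mouse 71 gave 9 genes. With no filter on low values the call of Snrpa1 was lost as well (limma adjusted p 0.0773). Tmem30c, which did not pass in the main fit, passed with lower values in SMA in several settings. Among these were no filter (−1.58), array weights (−1.51) and trochlear-only libraries left out (−1.78). With trochlear-only libraries left out, 7 genes passed, and Smn1, Snrpa1, Chrac1 and Cdkn1a were among them. Control mice 29, 30 and 75 were then oculomotor only, while all 5 SMA mice had libraries of both nuclei together. Control mouse 71, whose library joined both nuclei as in SMA mice, had 12.7 RPKM of Chrac1, 34.4 of Cdkn1a and 44.2 of Snrpa1. Every control lay below every SMA mouse for these genes, so mouse 71 could not come out otherwise. The part of the nucleus in these differences was not tested.

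Cdkn1a belongs to a group of p53 targets whose members were examined next. The lists held 58 genes, of which 55 passed the filter on low values; Cdc25c, E2f7 and Cd80 did not. At an unadjusted p under 0.05, 15 of the 55 had higher values in SMA (27.3%, against 4.23% of all genes) and 0 had lower values, where 2.81% of all genes did. Only Cdkn1a passed the adjusted threshold. The median difference of the 55 was 0.27 and 41 were positive, against a median of 0.06 over all genes, of which 57% were positive. Gtse1, Dcxr, Trim72 and Fam212b had been listed because they recur in these data; without them 11 of 51 had higher values (21.6%). In 7 of the 15 the control mean was under 1 RPKM, the level the filter asks for. Such genes can pass the filter through the SMA mice alone. The shares of the p53 lists here and below therefore describe the lists and are not a test. Without mouse 29, 9 of the 55 had higher values at an unadjusted p under 0.05, where 2.06% of all genes did, and 0 had lower values. The median was then 0.23 and 37 were positive.

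Among the growth arrest targets, 5 of 15 tested had higher values in SMA at an unadjusted p under 0.05 (33.3%, against 4.23% of all genes). Without mouse 29 there were 3 (20%, against 2.06% of all genes), and the p was 0.136 for Plk2 and 0.0719 for Gtse1. Phlda3, which holds back the kinase Akt, had 13.1 to 52.2 RPKM in controls and 56.0 to 81.2 in SMA, without overlap. Its difference was 1.43 (SE 0.36, unadjusted limma p 0.000522, adjusted p 0.304). Ccng1, which encodes cyclin G1, had 30.3 to 44.5 in controls and 46.9 to 74.3 in SMA, also without overlap (0.62, SE 0.17, unadjusted p 0.00147). Plk2, a polo-like kinase, had 2.70 to 9.09 and 4.49 to 15.9, which overlapped (0.85, SE 0.37, unadjusted p 0.0306). Gtse1, a regulator of p53 in the cell cycle, was low in both groups, at 0.278 ± 0.557 RPKM in controls (SD, n = 4) and 2.06 ± 2.43 in SMA (n = 5). Btg2, Sesn1, Gadd45a and Zmat3, other targets of this arm, had differences of 0.87, 0.01, −0.21 and 0.25 and none had an unadjusted p under 0.05.

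Of the cell death targets, 4 of 18 had higher values at an unadjusted p under 0.05 (22.2%, against 4.23% of all genes). Without mouse 29 there were 3 (16.7%, against 2.06% of all genes), and the p of Trp53i11 was 0.107. Pidd1, a death-domain protein listed in the table as Lrdd, had 0 to 1.80 RPKM in controls and 1.49 to 7.87 in SMA (1.72, SE 0.53, unadjusted limma p 0.00299). Eda2r, a receptor of the tumour necrosis factor family, was at most 0.0491 in controls and 0.0497 to 3.64 in SMA (1.18, SE 0.43, unadjusted p 0.0100). Aen, a nuclease, had 1.29 to 3.47 and 3.98 to 6.85, without overlap (1.03, SE 0.47, unadjusted p 0.0367). Trp53i11 had 6.81 to 14.5 and 10.8 to 27.8 (0.78, SE 0.34, unadjusted p 0.0297). The mitochondrial death effectors Bax, Bbc3 and Pmaip1 had differences of 0.31, 0.24 and 0.43, and their groups overlapped.

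Of the 22 tested genes of repair, feedback and metabolism, 6 had higher values at an unadjusted p under 0.05 (27.3%, against 4.23% of all genes). Without mouse 29 there were 3 (13.6%, against 2.06% of all genes). The p was then 0.0678 for Rps27l, 0.0574 for Psrc1 and 0.110 for Fam212b. Ppm1d, the phosphatase that shuts off p53 signalling, had 0.603 to 1.45 RPKM in controls and 2.04 to 11.1 in SMA, without overlap (1.33, SE 0.54, unadjusted limma p 0.0207). Rps27l, a p53-induced relative of a ribosomal protein, had 192 to 258 and 272 to 389, without overlap (0.49, SE 0.20, unadjusted p 0.02). Dcxr, a carbonyl reductase, had 4.13 to 24.5 and 14.4 to 46.6, which overlapped (1.66, SE 0.56, unadjusted p 0.00588). Trim72, Psrc1 and Fam212b had means under 1 RPKM in controls and 1.75 to 2.71 in SMA. Mdm2, the ubiquitin ligase that removes p53 and is itself a target, had 11.7 to 31.6 RPKM in controls and 9.23 to 21.8 in SMA, a difference of −0.40 (SE 0.31, unadjusted p 0.203). Trp53 itself had 3.11 to 14.5 and 7.69 to 19.0 (0.73, SE 0.37, unadjusted p 0.0606).

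Promoter windows from RefSeq (GRCm38.p6, 250 bases before to 50 after each start) were searched for a p53 response element, taken as a pair of p53 consensus decamers separated by 0 to 13 bases with at most 1 base off the consensus in all. The consensus reads the same on both strands. A window was at hand for 46 of the 58 p53 list members, and 6 of them held such a pair (13%), against 1.24% of the 27025 genes with a window. They were Cdkn1a, Ccng1, Rps27l, Gtse1, Bax and Polk. The first 4 are shown because they also had higher values in SMA at an unadjusted p under 0.05, with the decamers in capitals and each strand read 5′ to 3′. The Cdkn1a line is the whole window of its upstream start, chr17:29090729-29091028 on the plus strand, and its second window, at chr17:29093519-29093818, held none. The other lines give the pair with 10 bases on each side: Ccng1 at chr11:40755452-40755491 on the minus strand, Rps27l at chr9:66946286-66946325 on the plus strand and Gtse1 at chr15:85859935-85859974 on the plus strand.
Cdkn1a: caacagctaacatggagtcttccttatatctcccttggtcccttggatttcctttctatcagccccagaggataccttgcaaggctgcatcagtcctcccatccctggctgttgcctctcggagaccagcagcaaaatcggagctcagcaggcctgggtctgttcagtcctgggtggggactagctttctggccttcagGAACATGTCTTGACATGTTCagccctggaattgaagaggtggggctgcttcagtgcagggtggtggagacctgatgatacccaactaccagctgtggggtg
Ccng1: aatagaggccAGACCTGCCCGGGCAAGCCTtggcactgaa
Rps27l: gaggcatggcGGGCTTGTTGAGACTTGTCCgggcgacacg
Gtse1: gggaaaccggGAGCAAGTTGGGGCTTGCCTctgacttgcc
In each of the 4 the decamers were adjacent and 1 base was off the consensus. A match describes letters only, and binding of p53 was not measured.

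**Figure D3:**
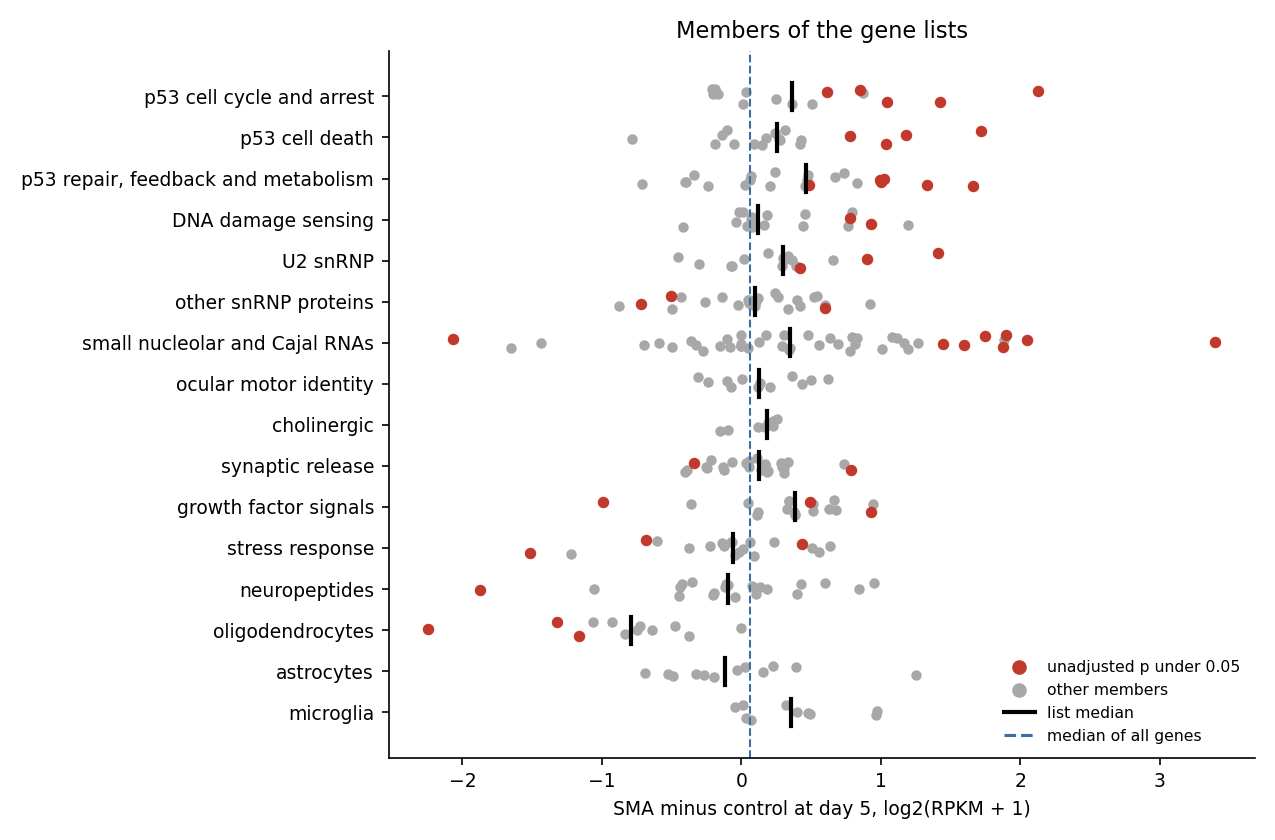
Difference between SMA and control mice at day 5 for the tested members of 16 gene lists, on the log2(RPKM + 1) scale. Red points have an unadjusted limma p under 0.05, black bars are list medians and the dashed line is the median of all genes; the medians of the p53 lists lie to its right and that of the oligodendrocyte list to its left.

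Snrpa1 was set beside the other splicing genes. Of 16 U2 proteins 3 had higher values at an unadjusted p under 0.05 (18.8%, against 4.23% of all genes). There were 0 with lower values, where 2.81% of all genes had them. The 3 with higher values included Snrpa1, which was already called. Beside Snrpa1 these were Sf3b4 (4.63 ± 2.52 RPKM in controls, n = 4, and 8.84 ± 2.04 in SMA, n = 5, SD) and Sf3b1 (33.6 ± 3.98 and 45.5 ± 7.56), subunits of the complex that holds U2 at the branch point. Their differences were 0.90 (SE 0.29, unadjusted limma p 0.00399) and 0.42 (SE 0.20, unadjusted p 0.0480), and in both the groups overlapped. Of the 26 Sm, U1, U5 and U4/U6 proteins tested, 1 had higher values (3.85%, near the 4.23% of all genes) and 2 had lower values (7.69%, against 2.81%). The 1 was Prpf8, whose p was 0.249 without mouse 29. Those with lower values were Prpf6, whose p was 0.0580 without mouse 29, and the U1 protein Snrnp70 with 39.9 ± 4.14 RPKM in controls and 24.7 ± 7.55 in SMA (−0.72, SE 0.23, unadjusted p 0.00477), without overlap. Of the 8 other members of the SMN complex 0 had an unadjusted p under 0.05, and their differences ran from −1.55 for Gemin4 to 0.45 for Gemin7. None of the 10 proteins of the minor spliceosome list had an unadjusted p under 0.05 either.

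Many, but not all, small nucleolar and Cajal body RNAs guide the modification of ribosomal and spliceosomal RNAs. Of 123 rows of this kind 45 passed the filter, 7 had higher values in SMA at an unadjusted p under 0.05 (15.6%, against 4.23% of all genes) and 1 had lower values (2.22%, against 2.81%). Without mouse 29 the counts were 4 (8.89%, against 2.06% of all genes) and 0, and Snord13 and Snord118 were among the 4. Rows near 0 in controls can pass the filter through the SMA mice alone. These shares therefore describe the list and are not a test. Snord13 (chromosome 8, 31149864 to 31149967, minus strand, GRCm38), needed for 18S ribosomal RNA, was at 0, 2.67, 8.97 and 12.9 RPKM in controls 29, 30, 71 and 75. SMA mice 31, 46, 61, 76 and 77 had 89.9, 31.8, 47.5, 76.8 and 27.0. All SMA mice were above all controls (3.40, SE 0.77, unadjusted limma p 0.000148, adjusted p 0.181). The gene has only 104 annotated bases, so control values this low rest on few reads each. Snord118, the U8 RNA, had 1.42 ± 2.83 RPKM in controls and 9.09 ± 7.97 in SMA (2.05, SE 0.72, unadjusted p 0.00809). Snord8 was the member with lower values, at 5.91 ± 7.59 in controls and 0 in every SMA mouse (unadjusted p 0.0258, and 0.144 without mouse 29). RNAs of this kind are short and as a class mostly lie in introns of other genes, and polyA libraries catch them irregularly.

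Of the 221 genes with every SMA mouse above every control, 159 had an SMA mean of at least 5 RPKM, and the 10 of these with the smallest limma p that did not pass the threshold had adjusted p from 0.0899 to 0.304. Rab14, a GTPase of traffic between endosomes and the Golgi, came first, with 89.7 to 134 RPKM in controls and 150 to 387 in SMA (0.99, SE 0.20, adjusted p 0.0899). Mlana, a melanosome protein, was at 0 in 3 controls and 0.112 in the other, and at 2.35 to 9.56 in SMA (2.43, SE 0.51, adjusted p 0.127). Mepce, the enzyme that caps the 7SK RNA, had 2.38 to 6.62 and 8.44 to 34.5 (1.63, SE 0.36, adjusted p 0.166). Atp1b1, a subunit of the sodium pump, had 524 to 788 and 842 to 1219 (0.55, SE 0.14, adjusted p 0.304). Kat7, a histone acetyltransferase, had 7.32 to 20.1 and 24.7 to 35.3 (1.12, SE 0.28, adjusted p 0.293). Atp1b1 overlaps Nme7 on the other strand. The other 5 were Snord13, 1700007K13Rik, the ubiquitin ligase Ube4a, Msantd4 and Phlda3. In all 10, control mouse 29 was the lowest control or tied with the lowest, and without it their differences stayed positive, from 0.43 to 2.65.

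Of the 141 genes with every SMA mouse below every control, 108 had a control mean of at least 5 RPKM, and the 10 named by the same rule had adjusted p from 0.162 to 0.442. Cdkn1b, which encodes p27, a relative of p21, had 25.6, 23.4, 13.1 and 17.9 RPKM in controls 29, 30, 71 and 75 and 2.51, 6.66, 7.79, 6.11 and 11.1 in SMA mice 31, 46, 61, 76 and 77. Its difference was −1.49 (SE 0.38, adjusted p 0.304), opposite in sign to that of Cdkn1a. Tmppe had 4.73 to 13.5 in controls and 1.36 to 3.20 in SMA (−1.48, SE 0.32, adjusted p 0.162), and it lies within Glb1 on the same strand. R3hdm4 had 287 to 538 and 128 to 264 (−0.96, SE 0.22, adjusted p 0.228), and it overlaps Kiss1r. Tsku, a secreted leucine-rich protein, had 8.06 to 13.3 and 1.23 to 4.87 (−1.78, SE 0.43, adjusted p 0.271). Iars2, the mitochondrial isoleucyl-tRNA synthetase, had 26.8 to 98.9 and 10.3 to 13.1 (−2.08, SE 0.56, adjusted p 0.396), and it overlaps Rab3gap2 on the other strand. Dusp6, a phosphatase of the kinase ERK, had 6.87 to 24.9 and 2.28 to 5.83 (−1.39, SE 0.40, adjusted p 0.442). The other 4 were Nvl, Dnph1, Cdan1_ann1 and Zbtb33. In 8 of the 10, control mouse 29 was the highest control; without it the differences were −2.39 to −0.78.

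The genes that make these cells ocular motor neurons gave no call. Of 12 ocular and cranial motor neuron genes and 8 cholinergic genes, 0 had an unadjusted p under 0.05. Isl1 had a difference of 0.12 (SE 0.28) and Chat of 0.19 (SE 0.50). The 8 genes that the study itself named as raised in ocular neurons, a list chosen on these samples, had 7 members tested and 0 with an unadjusted p under 0.05. Among them Syt5, a calcium sensor of vesicles, had a difference of 0.74 (SE 0.43, unadjusted limma p 0.0962) and Syt1 of 0.14 (SE 0.19). Of 26 genes of vesicle release, 1 had higher and 1 had lower values at an unadjusted p under 0.05 (3.85% each, near the shares of all genes). Sv2c had higher values (19.9 ± 7.05 RPKM in controls and 37.0 ± 20.7 in SMA, SD, n = 4 and 5) and the vesicle protein Syp had lower values (441 ± 36.9 and 350 ± 46.8). Of 19 growth factor genes tested, 17 were positive (89.5%, against 57% of all genes), with a median of 0.38. The neurotrophin receptors Ntrk2 and Ntrk3 had higher values at an unadjusted p under 0.05 (10.5%, against 4.23% of all genes). Igf2r had lower values at that level (5.26%, against 2.81%). Without mouse 29 the p was 0.0843 for Ntrk2 and 0.234 for Ntrk3, and the fits without 1 mouse gave 0 to 4 members with higher values.

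Gal encodes galanin, a neuropeptide that rises in many neurons after axon injury. It had 56.1 to 69.9 RPKM in the 4 controls and 10.8 to 22.5 in the 5 SMA mice. The groups were far apart relative to their own spread, and the difference was −1.88 (SE 0.62, limma adjusted p 0.50). With only the day 5 groups in the fit the SE was 0.22 and the adjusted p 0.0301. Of the other 20 neuropeptide genes tested, 0 had an unadjusted p under 0.05. Other axon injury genes gave no unadjusted p under 0.05 in the 12 tested beside Gal. Of 20 genes of the unfolded protein and integrated stress responses, the asparagine synthetase Asns had higher values, and Pdia4 and Sdf2l1, which help proteins fold in the endoplasmic reticulum, had lower values, at an unadjusted p under 0.05. These were 5% and 10% of the list, against 4.23% and 2.81% of all genes, and without mouse 29 the counts were 0 and 1, with Sdf2l1 the 1.

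Markers of neighbouring cells varied between mice. Oligodendrocyte markers summed to 73.8 to 513 RPKM in controls and 54.3 to 421 in SMA, with medians of 337 and 98.6. By sign alone, 0 of the 12 had a positive and 11 had a negative difference, where 57% of all genes were positive. Opalin was at 0 in every mouse, and the list median was −0.79. Mobp and Cldn11 were among those with an unadjusted p under 0.05, and Mobp had 32.9 ± 33.7 RPKM in controls (SD, n = 4) and 7.59 ± 9.67 in SMA (n = 5). The highest sums were those of controls 75 and 29 and of SMA mouse 76. With an unadjusted p under 0.05 there were 3 members with lower values (25%, against 2.81% of all genes). This count moved with the mice. It was 1 without control mouse 29, SMA mouse 31 or SMA mouse 77, 7 without control mouse 30, 6 without SMA mouse 76 and 5 with quantile normalization. Mobp kept a p of 0.0135 without mouse 29. In such captured pools fewer cells of a type and less RNA per cell cannot be told apart. Gad1, the GABA-making enzyme, had 3.27 to 42.9 RPKM in controls and 0.0417 to 2.32 in SMA, while Gad2 had 1.38 to 10.7 and 5.14 to 10.5. Markers of serotonergic neurons summed to 161 in SMA mouse 46 and 66.0 in control mouse 75 and to at most 17.6 in the other mice. Those of peptidergic neurons of the Edinger-Westphal nucleus, a neighbour of the oculomotor nucleus, ran from 11.9 to 4891 in controls and from 29.1 to 2863 in SMA. Astrocyte markers summed to 1621 to 2078 in controls and 1492 to 1787 in SMA, most of it Aldoc. The part of these cells in the results above was not tested.

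**Figure D4:**
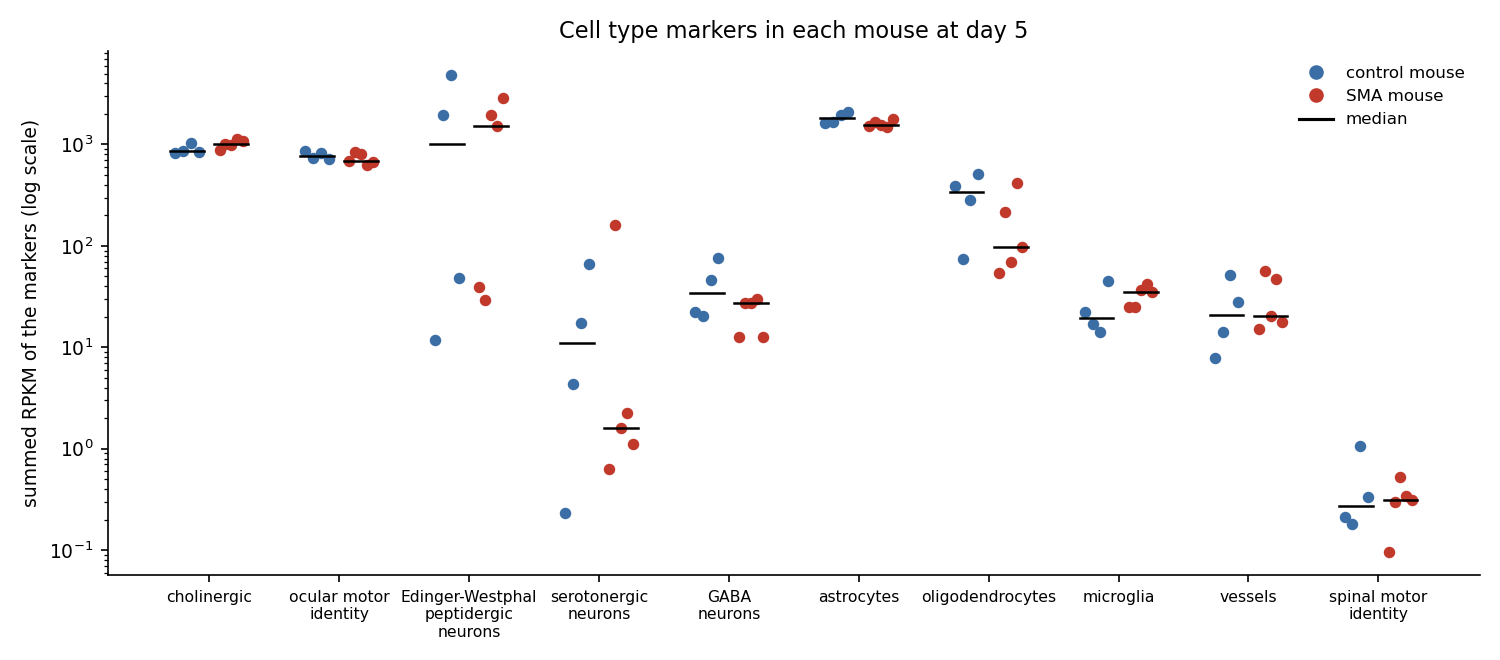
Summed RPKM of cell type markers in each mouse at day 5, on a log scale, with black lines for medians. Oligodendrocyte sums reach 513 in controls and 421 in SMA with the SMA median lower, and spinal motor markers stay at or below 1.07 in every mouse.

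The day 5 differences were then set against those of ocular neurons at day 2 (4 control and 6 SMA mice) and day 10 (4 and 5), from other mice. Smn1 had differences of −4.47 at day 2, −3.78 at day 5 and −4.50 at day 10. Snrpa1 had differences of 1.37 at day 2 (SE 0.25, limma adjusted p 0.0211), 1.41 at day 5 and 1.29 at day 10 (SE 0.26, adjusted p 0.0142). Cdkn1a had 0.60 at day 2 (SE 0.34, adjusted p 0.524), 2.13 at day 5 and 5.59 at day 10 (SE 0.35, adjusted p 1.79e-11). The control medians of Cdkn1a were 47.4 RPKM at day 2, 27.9 at day 5 and 4.45 at day 10, while the SMA medians were 74.2, 89.2 and 229. Chrac1 had −0.39 at day 2 (SE 0.32, adjusted p 0.673), 2.11 at day 5 and −0.70 at day 10 (SE 0.33, adjusted p 0.837). Its SMA median was 16.1 RPKM at day 2, 62.2 at day 5 and 14.1 at day 10, and its control medians were 23.7, 12.5 and 24.6.

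**Figure D5:**
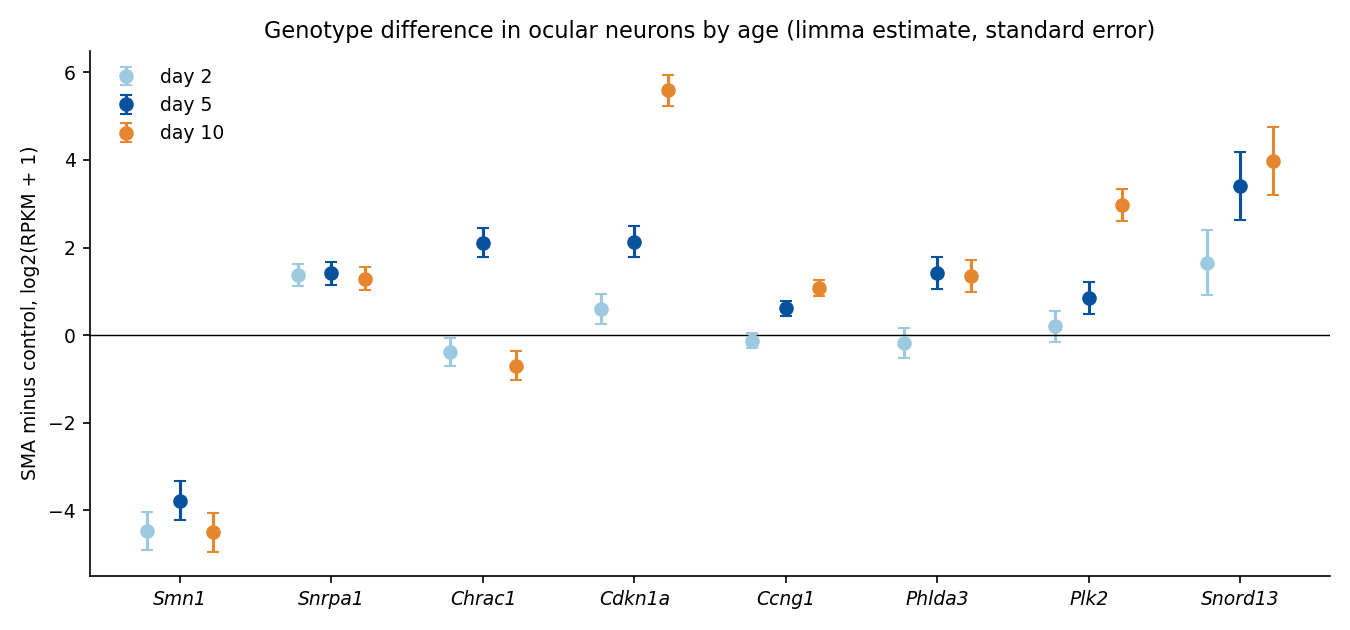
Difference between SMA and control ocular neurons at days 2, 5 and 10 for the 4 genes past the threshold at day 5 and for Ccng1, Phlda3, Plk2 and Snord13, on the log2(RPKM + 1) scale, with limma standard errors. Snrpa1 stays near the same value, Cdkn1a is highest at day 10 and Chrac1 is far above 0 at day 5 and slightly below it at the other ages.

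The change of the genotype difference between ages was tested gene by gene. Between day 5 and day 10 it differed in 9 of 15890 genes (0.0566%). The 5 with the smallest p were Iapp, Scn3b, Ly6d, Cdkn1a and Chrac1. For Cdkn1a the difference grew by 3.47 (SE 0.50, limma adjusted p 0.000662), and for Chrac1 it fell by 2.81 (SE 0.47, adjusted p 0.00586). Iapp, the amylin peptide, Scn3b, a sodium channel subunit, and Ly6d, a surface protein, had differences of −0.05, −0.19 and −0.04 at day 5 and of 5.07, 2.62 and 4.95 at day 10. In day 5 SMA mice Iapp was at 0 throughout and Scn3b had 13.2 to 30.8 RPKM, against 16.3 to 26.8 in controls. Between day 2 and day 5 the difference changed in 1 of 15890 genes (0.00629%), Cbx6_ann3, 1 of the rows the table gives for the polycomb gene Cbx6. The change was −3.88 (SE 0.65, limma adjusted p 0.0356), and it passed the threshold in 1 of the 9 fits that left out 1 day 5 mouse, with adjusted p from 0.0206 to 0.105. In 7 of these fits 0 genes passed, and without SMA mouse 77 the gene that passed was Chrac1. At day 2 Cbx6_ann3 was at 0 in 3 of 4 controls and at 4.54 to 27.1 RPKM in SMA. At day 5 Cbx6_ann3 had 15.5 to 58.3 in controls and 12.5 to 27.9 in SMA. For Chrac1 that change was 2.50 (SE 0.46, adjusted p 0.0645).

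Genes called at day 10, when 57 of 15890 passed (0.359%), were followed back to day 5 in the separate day 5 mice. Leaving out the genes that also passed at day 5, 51 were higher at day 10 in SMA; 35 of these were positive at day 5 and 14 had higher values at an unadjusted p under 0.05, where 4.23% of all genes did. Their median difference was 2.45 at day 10 and 0.42 at day 5. Without mouse 29 the day 5 median was 0.37 and the count was 11, where 2.06% of all genes had higher values. Some of the 14, among them Ano3, Homer3 and Psrc1, had day 5 control means under 1 RPKM. Such genes can pass the filter through the SMA mice alone. Of the 15 p53 list members with higher values counted above, 9 were called at day 10, Cdkn1a included. All ages also share 1 estimate of the spread, so these counts are not a test. Cacnb3, a calcium channel subunit, had 9.37 ± 1.17 RPKM in controls (SD, n = 4) and 15.3 ± 4.28 in SMA (n = 5) at day 5, with a difference of 0.62 against 1.54 at day 10. Plk2 had 0.85 at day 5 and 2.97 at day 10, Ccng1 had 0.62 and 1.08, and Dcxr had 1.66 and 2.60. Of 21 genes called at day 2 (0.132%), 15 higher ones beside Snrpa1 had a median of 1.69 at day 2 and 0.39 at day 5, and 2 had higher values at day 5 at an unadjusted p under 0.05. Without mouse 29 their day 5 median was 0.21 and the count was 0.

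The ocular differences were then tested against those of lumbar spinal motor neurons, which are vulnerable in SMA, of day 5 mice, 5 control and 5 SMA, in a joint fit. All 9 ocular mice also gave lumbar samples, so the populations share animals. The genotype difference differed between ocular and lumbar neurons in 0 of 18073 genes (0%) by limma, and 1188 had an unadjusted p under 0.05. Snrpa1 had 1.39 in lumbar neurons (SE 0.22, adjusted p 0.000456), with a difference between the populations of 0.02 (SE 0.33). Cdkn1a had 3.45 in lumbar neurons (SE 0.37, adjusted p 1.16e-08), and the ocular difference was smaller by 1.32 (SE 0.54, unadjusted p 0.0181, adjusted p 0.665). Chrac1 had 0.40 in lumbar neurons (SE 0.40, adjusted p 0.975), and the ocular difference was larger by 1.71 (SE 0.58, unadjusted p 0.00451, adjusted p 0.533). In red nucleus, facial, vagus, hypoglossal and lumbar neurons at day 5 the Chrac1 values of SMA and control mice overlapped in every population. Control medians were 10.1 to 26.4 RPKM and SMA medians 5.52 to 18.7. The highest SMA mouse was above the highest control in hypoglossal (53.4 against 15.7), red nucleus (42.4 against 30.4) and facial neurons (27.5 against 17.2). It was below the highest control in vagus (20.5 against 35.7) and lumbar neurons (19.3 against 23.8).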

How the data were processed

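RNA of laser-captured oculomotor and trochlear neurons was measured by Smart-seq2 per the labels' protocols. The authors deposited 1 table of RPKM for 39410 rows and 168 libraries; STAR 2.4.1c and the builds mm10 and hg19 come from the submitters' processing notes, and the counter, strand setting and annotation are not given in the sources used here. Depth was recovered from the steps of low RPKM values of genes with a single transcript (74.4% to 78.2% of low values whole within 0.02 reads). Since the other low values were not whole, counts were not recovered for nearly all genes and no count test was run. Positions came from GENCODE M21 (GRCm38), which matched 89.7% of rows.

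Groups and mouse numbers came from the labels. RPKM of a mouse's libraries were averaged. A pseudocount of 1 RPKM was added before the log2, and limma 3.58.1 (R 4.3.3; lmFit, eBayes with a trend) tested these values in 1 fit of the 6 ocular groups (28 mouse samples). A gene entered with at least 1 RPKM in 4 of them. The fold changes understate those of low genes. The comparison with lumbar neurons used 58 mouse samples. The script was tested on simulated data. Tables and figures were made with Python 3.11.15 and matplotlib. Named genes are those past the threshold, the 10 higher and 10 lower others with the smallest p among genes without overlap and a mean of at least 5 RPKM in the higher group, list members with an unadjusted p under 0.05 or that define a list, and the 5 smallest p of an interaction. The members, lists and rules were chosen with earlier results of these data known. The mice are separate animals, but litters, handling days and operators are not given. Alternatives changed the pseudocount, filter, scaling, weights, samples and fit; list counts without each mouse and under quantile normalization were added after seeing the data. Some list members are not reported here by name.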

Additional observations from a re-analysis of the deposited data

Results flagged for a closer look

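In 9 of 62 groups of mouse values tested, 1 mouse lay apart from the rest of its genotype by more than Dixon's 95% limit; in 2 of the 9 (Smn1 in SMA, Mlana in controls) all other mice were at 0, so that any value above 0 would lie apart. That leaves 7 of 60 groups. The limit is set for about 1 in 20 of independent groups with normal values. These groups share the same mice, and many hold genes picked for their genotype difference, so the share is not a test. SMA mouse 31 had 1.46 RPKM of Smn1, where the other SMA mice were at 0, and 273 of Cdkn1a. Control mouse 29 had 17.2 of Cdan1_ann1, 24.9 of Dusp6 and 13.4 of Zbtb33, each above the other controls. Control mouse 30 had 0.112 of Mlana, where the other controls were at 0. SMA mouse 77 had 6.08 of Ube4a and SMA mouse 76 had 53 of Msantd4. Serotonergic markers summed to 161 in SMA mouse 46.

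The genotype difference in ocular neurons changed between ages in 6 of the named genes by the limma test of the change itself. From day 2 to day 5 it changed by −3.88 for Cbx6_ann3 (adjusted p 0.0356). From day 5 to day 10 it changed by 5.11 for Iapp (adjusted p 3.38e-09), 2.81 for Scn3b (4.33e-05), 4.99 for Ly6d (0.000111), 3.47 for Cdkn1a (0.000662) and −2.81 for Chrac1 (0.00586). Each age came from other mice.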

How the results depend on the processing

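The day 5 call count was 4, and all directions of the 4 genes held in every setting run. It was 15 with each library as its own sample, 7 without trochlear-only libraries and 2 with only the day 5 groups in the fit; leaving out 1 mouse gave 1 (without control mouse 29) to 9 (without control mouse 71). The count for the change from day 2 to day 5 was 1, and 0 with no filter, with array weights or without trochlear-only libraries; leaving out 1 mouse gave 0 to 1, and the 1 was Cbx6_ann3 without control mouse 30 and Chrac1 without SMA mouse 77. The count for day 5 to day 10 was 9, 15 with each library as its own sample and 25 with array weights; leaving out 1 mouse gave 7 to 12. The count for ocular against lumbar neurons was 0, and 1 with each library as its own sample; leaving out 1 mouse gave 0 to 3. Control and SMA mice are different animals, so nothing pairs the genotypes; every ocular mouse also gave lumbar neurons, which makes those samples paired, and with the mouse as a replicate block the count was 0. The causes were not tested. Small pools of cells and 4 or 5 mice per group limit the precision, and low genes lie near the 3-read floor.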
